A study of Homo sapiens with 12 samples.

Results

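The 10 genes examined here encode proteins that hold back growth or the cell cycle. They are 2 G-type cyclins (CCNG1 and CCNG2), a feedback inhibitor of the EGF receptor (ERRFI1), 4 inhibitors of cyclin-dependent kinases (CDKN1A, CDKN1B, CDKN1C and CDKN2C) and 3 members of the BTG/TOB family of antiproliferative proteins (BTG1, BTG2 and TOB1). They were chosen by name, as the rows of the count files whose Ensembl identifier maps to these symbols, and make up 10 of the 60666 genes listed. All 10 passed the filter on low counts, which kept 14274 genes for testing. Of these 10, CCNG2 and ERRFI1 are named in the paper as inhibitors of proliferation that were higher in these same libraries, so they are not an independent choice.

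Huh7 cells are an established line from a human hepatocellular carcinoma. Molidustat inhibits the prolyl hydroxylases that mark the α subunits of the hypoxia-inducible factors (HIFs) for degradation. Cells were cultured with 25 µM Molidustat or with DMSO alone, the solvent, for 24 h or 48 h, and 3 libraries were sequenced in each of the 4 groups, which makes 12 in all. The paper describes the 3 libraries of a group as biological replicates, whereas the series' own entry mentions triplicate extractions. The SD and the p-values therefore measure the spread between these libraries, which may be technical. A single line was used, and 3′ libraries of whole cultures were counted, so a change in RNA per cell and a change in the cells that make up the culture cannot be told apart.

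Cyclins activate cyclin-dependent kinases (CDKs), which drive a cell from one phase of its cycle to the next, and CDK inhibitors bind these complexes and block them. Growth factors act upstream, through receptors such as EGFR, and feedback inhibitors such as ERRFI1 (also called MIG6) bind the receptor's kinase domain and switch it off. The BTG/TOB proteins bind the CCR4-NOT complex, which shortens the poly(A) tails of mRNAs, and slow proliferation in many cell types. In the liver, ERRFI1 is known to restrain EGF receptor signaling during regeneration, and loss of CDK inhibitors is common in hepatocellular carcinoma.

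The sequencing depth differed between libraries. Counts on genes came to 4033489, 2462623 and 4744982 with DMSO at 24 h, 2703897, 8202125 and 5101950 with Molidustat at 24 h, 6856097, 1499273 and 9179389 with DMSO at 48 h, and 4249851, 2312396 and 5122636 with Molidustat at 48 h. The smallest library, replicate 2 of DMSO at 48 h, stood apart from the other 11. Reads outside annotated features made up 50.4% of it, against at most 25.6% elsewhere, and across genes its log2 CPM had a Pearson r of 0.71 to 0.78 with the other libraries, which had 0.86 to 0.96 among themselves. CPM here are counts scaled to a common library total after TMM adjustment. Of the tested genes, 22.4% were more than 1 log2 unit above the median of the 11 others in this library and 32.4% were more than 1 log2 unit below it. TOB1 stood 2.79 above that median, the 735th highest of 14274 differences, whereas ERRFI1 stood at -2.28, CDKN1C at -2.24 and BTG1 at -1.29. Values are from all 12 libraries unless stated, and the larger shifts without this library are given beside them.

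The hepatic identity of the cultures was checked with 12 hepatocyte markers, all of which had counts in every library. Their summed level was 14507 to 19483 CPM with DMSO and 19978 to 27326 CPM with Molidustat at 24 h, and 9452 to 19378 CPM with DMSO and 28203 to 31434 CPM with Molidustat at 48 h. AFP, the fetal liver protein that many hepatocellular carcinomas secrete, was the most abundant of them overall at 3908 to 10323 CPM. Of the 14 markers of other cell types, CD3E, VWF, KRT5, KRT14 and DES were at 0 in all 12 libraries and PTPRC, the pan-leukocyte marker, had at most 4 counts. The sum of this list was 2.13 to 13.5 CPM with DMSO, 7.5 to 10.8 CPM with Molidustat at 24 h and 22.9 to 32.4 CPM with Molidustat at 48 h, with CD14 as its leading gene at up to 10.3 CPM. Both sums were higher in all Molidustat libraries at 48 h than in any DMSO library, and their part in the results below was not tested. By edgeR over both times, 2 of 12 hepatocyte markers were called higher (TF and SERPINA1, median of the list 0.61, against 0.96% of all genes) and 0 of the 5 tested markers of other cell types (median 1.68). Among these COL1A2, a collagen gene of fibroblasts, had 1.68 and CD14, a monocyte marker, had 1.72, while COL3A1 was at 0 in all DMSO libraries at 24 h and no fold is given, although its fitted value enters the median. The treatment itself was visible in BNIP3, a HIF target that promotes the removal of mitochondria, which had 158 ± 49.0 CPM (SD, n = 3) with DMSO and 1111 ± 129 CPM with Molidustat at 24 h, and 178 ± 26.9 and 1144 ± 52.0 CPM at 48 h.

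The sequence upstream of 3 genes is shown because their treated libraries were higher than every control at 1 or both times, and because HIFs bind DNA at short cores spelled ACGTG or GCGTG. Each line holds the 250 bases before the start site in RefSeq on GRCh38.p14, 5′ to 3′ on the strand of the gene, with matches to these cores or to the forkhead core GTAAACA on either strand in capitals. The windows are chr4:77156957-77157206 (plus strand) for CCNG2, chr1:8026310-8026559 (minus strand) for ERRFI1 and chr12:92145847-92146096 (minus strand) for BTG1.
CCNG2: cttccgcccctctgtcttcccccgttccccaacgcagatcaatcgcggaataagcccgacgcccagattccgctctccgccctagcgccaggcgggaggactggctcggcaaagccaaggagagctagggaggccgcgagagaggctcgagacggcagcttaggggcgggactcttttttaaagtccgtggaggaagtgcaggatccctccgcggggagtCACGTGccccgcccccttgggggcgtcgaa
ERRFI1: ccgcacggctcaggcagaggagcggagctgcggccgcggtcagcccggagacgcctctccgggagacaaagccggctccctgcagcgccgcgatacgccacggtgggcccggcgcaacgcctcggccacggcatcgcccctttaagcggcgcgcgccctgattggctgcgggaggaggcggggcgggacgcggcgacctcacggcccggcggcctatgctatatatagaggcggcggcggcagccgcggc
BTG1: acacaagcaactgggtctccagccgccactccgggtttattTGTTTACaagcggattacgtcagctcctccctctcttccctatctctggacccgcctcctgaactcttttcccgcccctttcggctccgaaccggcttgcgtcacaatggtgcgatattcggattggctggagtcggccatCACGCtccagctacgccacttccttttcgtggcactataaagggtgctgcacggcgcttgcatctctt
In CCNG2 the capitals mark 1 palindromic run that matches ACGTG on both strands and begins 30 bases before the start. In ERRFI1 none of the 3 motifs was found in this window. In BTG1 a match to GTAAACA on the opposite strand begins 209 bases before the start and a match to GCGTG on the opposite strand begins 68 bases before it. Among 35116 such windows of the reference, 18.5% hold ACGTG, 32.2% hold GCGTG, 43.2% hold either and 2.98% hold GTAAACA, so a match is common for the HIF cores. RefSeq windows were matched for 9 of the 10 genes, all but CDKN1C. The windows of BTG2 and TOB1 hold none of the 3 motifs, and those of CCNG1, CDKN1A and CDKN1B hold GCGTG. CDKN2C has 3 windows, each with ACGTG or GCGTG.

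ERRFI1 (ENSG00000116285, chr1:8004404-8026309, minus strand) had the lowest adjusted p of the members over both times. With DMSO its 3 libraries had 52.6, 73.6 and 91.9 CPM at 24 h and 47.0, 22.4 and 48.6 CPM at 48 h. With Molidustat they had 110, 192 and 182 CPM at 24 h and 133, 116 and 140 CPM at 48 h. No treated library was as low as any control of its time point, and the lowest DMSO value was replicate 2 at 48 h. The means were 72.7 ± 19.7 CPM (SD, n = 3) with DMSO and 161 ± 44.4 CPM with Molidustat at 24 h, and 39.3 ± 14.7 and 130 ± 12.6 CPM at 48 h. Its log2 fold change was 1.15 (SE 0.35, edgeR adjusted p = 0.392) at 24 h and 1.69 (SE 0.36, edgeR adjusted p = 0.0794) at 48 h, and neither time point passed the threshold alone. Taken as the mean of both times, ERRFI1 was higher by 1.42 on the log2 scale (SE 0.25, edgeR adjusted p = 0.00826), a 2.68-fold difference, and was the only member called. Without replicate 2 of DMSO at 48 h the value was 1.30 (SE 0.21, edgeR adjusted p = 0.00149), while without replicate 1 of DMSO at 24 h it was 1.32 with an edgeR adjusted p of 0.0511 and the call was lost. The counts behind these values ran from 21 in the shallow library to 1581, and an antisense lncRNA that overlaps the gene had 69 counts in all libraries together, against 6146 for ERRFI1.

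CCNG2 (ENSG00000138764, chr4:77157207-77433388, plus strand) encodes cyclin G2, an unconventional cyclin that accompanies cell cycle arrest and associates with protein phosphatase 2A. Its levels were 19.5, 38.1 and 23.5 CPM with DMSO and 91.4, 53.4 and 61.7 CPM with Molidustat at 24 h. At 48 h they were 43.9, 39.4 and 47.6 CPM with DMSO and 78.0, 52.8 and 95.3 CPM with Molidustat. The Molidustat libraries lay above the DMSO libraries at both times, and replicate 2 of DMSO at 48 h was close to the other 2 of its group. In order of the group means, Molidustat at 48 h (75.3 ± 21.4 CPM, SD, n = 3) and at 24 h (68.9 ± 19.98) overlapped, followed without overlap by DMSO at 48 h (43.6 ± 4.13) and DMSO at 24 h (27.1 ± 9.79). The log2 fold change was 1.35 (SE 0.35, edgeR adjusted p = 0.238) at 24 h and 0.78 (SE 0.35, edgeR adjusted p = 0.343) at 48 h. Over both times it was 1.07 (SE 0.25), a 2.10-fold difference that missed the threshold with an edgeR adjusted p of 0.0522. Whether CCNG2 was called depended on the settings. Without replicate 2 of DMSO at 48 h the value was 1.04 (SE 0.24) with an edgeR adjusted p of 0.0279, and over 22 alternatives it ran from 0.94 to 1.22 with adjusted p between 0.00193 and 0.220. The test of a different effect at 48 h and 24 h gave -0.57 (SE 0.49, edgeR adjusted p = 0.871).

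Its paralog CCNG1 (ENSG00000113328, chr5:163437569-163446151, plus strand), a p53 target that encodes cyclin G1, showed overlapping groups. CCNG1 had 66.8, 56.6 and 65.5 CPM with DMSO and 64.5, 87.5 and 55.2 CPM with Molidustat at 24 h. At 48 h it had 78.2, 70.3 and 86.3 CPM with DMSO and 40.7, 42.5 and 74.8 CPM with Molidustat. The treated and control libraries overlapped at both times, since 1 Molidustat library at 48 h lay among the DMSO values. In log2 terms the difference was 0.13 (SE 0.31) at 24 h and -0.57 (SE 0.32, edgeR adjusted p = 0.474) at 48 h. Whether the paralogs differ in their response was not tested.

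**Figure D1:**
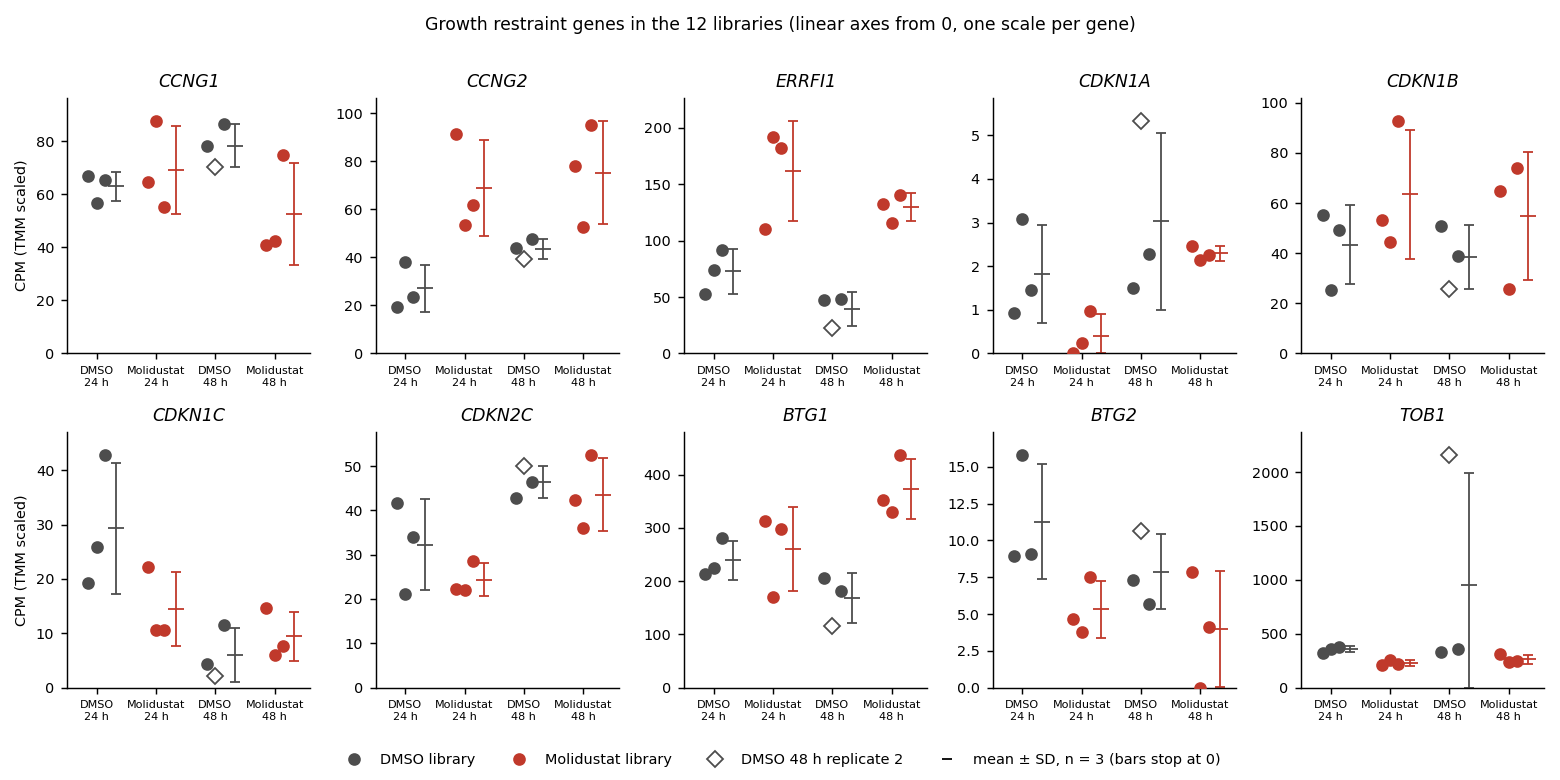
Levels of the 10 growth restraint genes in CPM (linear axes from 0) in each of the 12 libraries, with the mean and SD of each group (n = 3) at its right and replicate 2 of DMSO at 48 h as an open diamond. The Molidustat libraries lie above the DMSO libraries at both times for CCNG2 and ERRFI1 and at 48 h for BTG1, and the diamond stands at 2156 CPM for TOB1.

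BTG1 (ENSG00000133639, chr12:92140278-92145846, minus strand), an antiproliferative gene that is high in resting cells, separated the treatments at 48 h. It had 212, 224 and 281 CPM with DMSO and 314, 169 and 297 CPM with Molidustat at 24 h, where the groups overlapped and replicate 2 of Molidustat was the lowest of the 6 libraries. At 48 h it had 206, 115 and 182 CPM with DMSO and 352, 330 and 436 CPM with Molidustat, without overlap. The group means at 48 h were 168 ± 47.3 and 373 ± 56.2 CPM (SD, n = 3). The log2 fold change was 0.12 (SE 0.33) at 24 h and 1.15 (SE 0.34, edgeR adjusted p = 0.203) at 48 h, and the latter was 0.93 (SE 0.29) without replicate 2 of DMSO at 48 h. DESeq2 called it higher at 48 h (1.14, SE 0.32, DESeq2 adjusted p = 0.0235) but not without that library (0.97, DESeq2 adjusted p = 0.053), and the adjusted p over 23 alternatives ran from 0.0138 to 0.519. The difference between the effects at 48 h and 24 h was 1.03 (SE 0.47, edgeR adjusted p = 0.728). Overlapping genes on the same strand (LINC01619, 49 counts) and the opposite strand (BTG1-DT, 131 counts) were small beside the 14729 counts of BTG1.

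TOB1 (ENSG00000141232, chr17:50862223-50867978, minus strand), a transducer of ERBB2 that recruits the CCR4-NOT deadenylase to mRNAs, had lower values with Molidustat, and 1 library set the size. It had 322, 362 and 379 CPM with DMSO and 207, 256 and 222 CPM with Molidustat at 24 h. At 48 h it had 331, 2156 and 358 CPM with DMSO and 312, 233 and 245 CPM with Molidustat. The Molidustat libraries lay below the DMSO libraries at both times, and the value of 2156 CPM belongs to replicate 2 of DMSO at 48 h, with 2025 counts. The fitted log2 fold change was -0.63 (SE 0.54) at 24 h and -1.85 (SE 0.56, edgeR adjusted p = 0.203) at 48 h. Without that library the values were -0.62 (SE 0.21, edgeR adjusted p = 0.328) and -0.40 (SE 0.24, edgeR adjusted p = 0.852), and the mean over both times moved from -1.24 (SE 0.39, edgeR adjusted p = 0.211) to -0.51 (SE 0.16, edgeR adjusted p = 0.144). DESeq2 returned no adjusted p for TOB1 with all libraries. Without replicate 2 of DMSO at 48 h it gave -0.64 at 24 h (DESeq2 adjusted p = 0.0694) and -0.50 over both times (DESeq2 adjusted p = 0.0276), short of the fold threshold.

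BTG2 (ENSG00000159388, chr1:203305491-203309602, plus strand), an early response gene and p53 target of the same family, was measured with few reads. It had 39, 41 and 44 counts (9.0, 15.8 and 9.1 CPM) with DMSO and 13, 31 and 39 counts (4.7, 3.8 and 7.5 CPM) with Molidustat at 24 h. The 48 h libraries had 54, 10 and 55 counts (7.3, 10.6 and 5.7 CPM) with DMSO and 35, 0 and 22 counts (7.9, 0 and 4.1 CPM) with Molidustat. The treated libraries lay below the controls at 24 h and overlapped with them at 48 h, where a count of 0 in replicate 2 of Molidustat allows up to 1.29 CPM (3 counts, counting error only). The log2 fold change was -1.08 (SE 0.82) at 24 h and -0.88 (SE 0.84) at 48 h, each about as large as its SE. At 48 h it ran from -1.73 without replicate 1 of Molidustat to -0.36 without replicate 2 of Molidustat, the library with no count.

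The 4 CDK inhibitors did not separate the treatments at either time. CDKN1A (ENSG00000124762, chr6:36676460-36687337, plus strand), which encodes p21, the p53-induced inhibitor, was close to the detection limit. It had 4, 8 and 7 counts with DMSO and 0, 2 and 5 with Molidustat at 24 h, and 11, 5 and 22 with DMSO and 11, 5 and 12 with Molidustat at 48 h, no more than 5.32 CPM in any library. The library without a count allows up to 1.08 CPM (3 counts), and the others had 0.243 and 0.961 CPM, against 0.919 to 3.08 CPM in the DMSO libraries at 24 h. The log2 fold change was -2.01 (SE 1.19) at 24 h and -0.29 (SE 1.12) at 48 h, and the latter was 0.27 without replicate 2 of DMSO at 48 h.

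CDKN1B (ENSG00000111276, chr12:12685498-12722369, plus strand), which encodes p27, a brake on the entry into S phase, had 55.3, 25.4 and 49.4 CPM with DMSO and 53.4, 44.3 and 92.7 CPM with Molidustat at 24 h. The 48 h libraries had 50.8, 25.6 and 39.1 CPM with DMSO and 64.9, 25.7 and 74.0 CPM with Molidustat. Replicate 2 had the lowest value in all 4 groups, and the ranges of treated and control libraries overlapped at both times. The treatment's log2 fold change was 0.54 (SE 0.44) at 24 h and 0.49 (SE 0.44) at 48 h, and over both times 0.52 (SE 0.31, edgeR adjusted p = 0.563). With 1 library left out, these ran from 0.15 (without replicate 3 of Molidustat) to 0.76 at 24 h and from 0.21 (without replicate 3 of Molidustat) to 0.81 at 48 h, and over both times from 0.32 to 0.68. GPR19, which lies on the opposite strand, had 200 counts against 3062 for CDKN1B.

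CDKN1C (ENSG00000129757, chr11:2883213-2885775, minus strand), the imprinted gene of p57, was highest with DMSO at 24 h. It had 19.3, 25.8 and 42.8 CPM with DMSO and 22.2, 10.6 and 10.6 CPM with Molidustat at 24 h. At 48 h its levels were 4.34, 2.13 and 11.6 CPM with DMSO and 14.6, 6.01 and 7.70 CPM with Molidustat. The ranges of treated and control libraries overlapped at both times. By edgeR, the log2 fold change with Molidustat was -1.04 (SE 0.57) at 24 h and 0.53 (SE 0.59) at 48 h (0.05 without replicate 1 of Molidustat and 1.39 without replicate 3 of DMSO), and the difference between these effects was 1.56 (SE 0.82, edgeR adjusted p = 0.781).

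CDKN2C (ENSG00000123080, chr1:50960745-50974634, plus strand), which encodes p18, an inhibitor of CDK4 and CDK6, had 41.6, 21.2 and 34.1 CPM with DMSO and 22.2, 22.1 and 28.6 CPM with Molidustat at 24 h. At 48 h it had 42.8, 50.04 and 46.4 CPM with DMSO and 42.2, 36.0 and 52.4 CPM with Molidustat. The groups overlapped at both times, and all 48 h libraries with DMSO lay above those at 24 h. The log2 fold change with Molidustat was -0.41 (SE 0.33) at 24 h and -0.08 (SE 0.33) at 48 h, and the latter changed sign under total-count scaling (0.09).

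**Figure D2:**
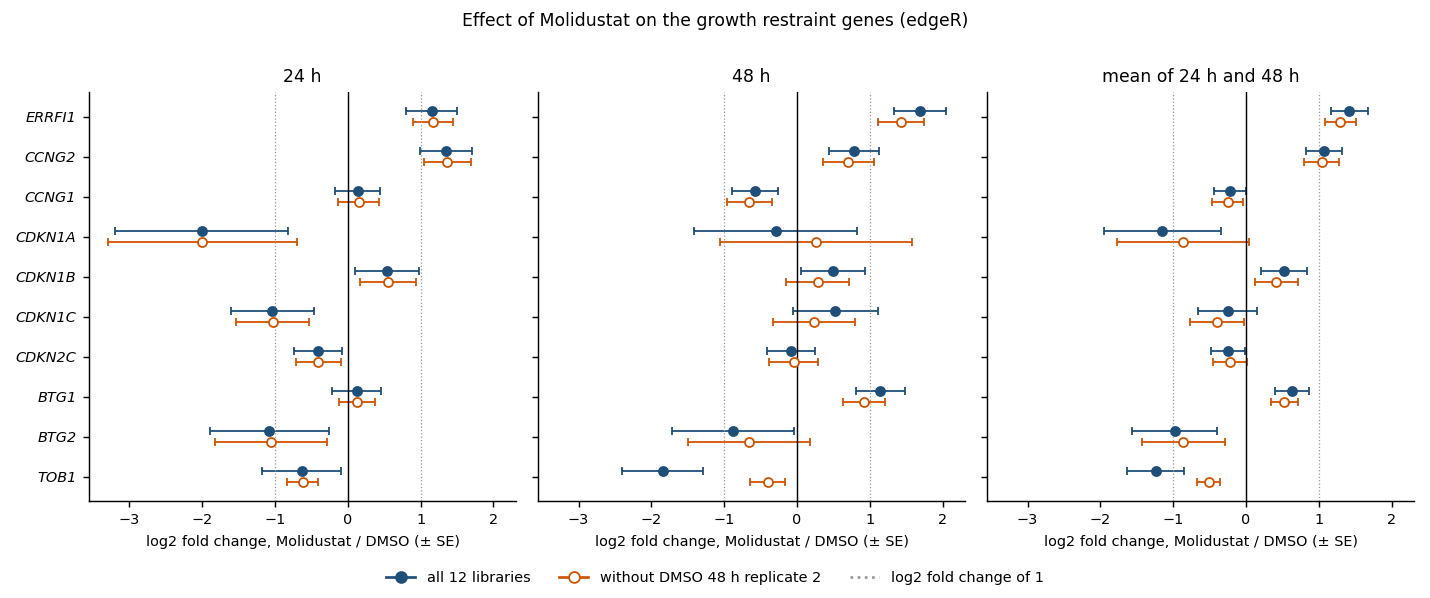
Log2 fold change of Molidustat against DMSO (edgeR, bars ± SE) for each of the 10 genes at 24 h, at 48 h and as the mean of both, with all 12 libraries (filled) and without replicate 2 of DMSO at 48 h (open). ERRFI1 and CCNG2 stay at or above 1 over both times in the 2 fits, while TOB1 at 48 h moves from -1.85 to -0.40.

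Counted over the set, few members passed the test. No member was called at 24 h or at 48 h (0 of 10 by the quasi-likelihood test of edgeR after Benjamini-Hochberg adjustment), where 0.231% and 0.21% of all genes tested were called higher and 0% and 0.021% were called lower. Over both times 1 of 10 was called higher and 0 lower, against 0.96% and 0.0701% of all genes, and without replicate 2 of DMSO at 48 h 2 of 10 were called higher (ERRFI1 and CCNG2), against 1.25%. At an unadjusted p under 0.05, 2 members were higher and 0 lower at 24 h (5.25% of all genes in either direction), 3 were higher and 1 lower at 48 h (13.3%), and 3 were higher and 1 lower over both times (11%). When replicate 2 of DMSO at 48 h was left out, these counts were 2 higher and 1 lower (TOB1) at 24 h (9.03% of all genes), 2 higher (ERRFI1 and BTG1) and 0 lower at 48 h (6.6%), and 3 higher and 1 lower over both times (11.9%). DESeq2 called CCNG2 higher at 24 h (0.83% of all genes called higher), ERRFI1 and BTG1 at 48 h (1.25%), and CCNG2 and ERRFI1 over both times (1.67%). The Molidustat libraries lay wholly above the DMSO libraries for 2 members at 24 h (7.26% of all genes) and for 3 at 48 h (9.96%), and wholly below for BTG2 and TOB1 at 24 h (5.02%) and for TOB1 at 48 h (8.02%). The median log2 fold change of the 10 members was -0.15 at 24 h, 0.21 at 48 h and -0.23 over both times, beside medians of 0.02, 0.01 and -0.01 over all genes, since 6 of the 10 had negative values over both times. The 24 h and 48 h comparisons have no library in common, whereas each shares its libraries with the mean over both times.

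The time in culture was examined within each treatment. With DMSO, all 48 h libraries lay above all 24 h libraries for CCNG1, CCNG2 and CDKN2C (5.75% of all genes) and below them for ERRFI1, CDKN1C and BTG1 (6.19%). CDKN1C had the largest difference of the members, -2.15 (SE 0.59, edgeR adjusted p = 0.541), and it was -1.85 (SE 0.58, edgeR adjusted p = 0.952) without replicate 2 of DMSO at 48 h. ERRFI1 stood at -0.85 (SE 0.35) and CCNG2 at 0.70 (SE 0.35), while TOB1 moved from 1.42 (SE 0.55) to -0.02 (SE 0.24) without that replicate. With Molidustat, the 48 h libraries lay above the 24 h libraries for CDKN1A, CDKN2C and BTG1 (7.15%) and below them for 0 members (6.79%). CDKN2C had a log2 fold change of 0.84 (SE 0.33), BTG1 had 0.52 (SE 0.33) and CDKN1A, with its few counts, 2.37 (SE 1.19). No member passed the adjusted threshold in either treatment or for a difference between the effects at 48 h and 24 h, while 0.00701% of all genes passed with DMSO, 0% with Molidustat and 0% for the difference. At an unadjusted p under 0.05 the shares of all genes were 8.14%, 4.58% and 6.78%, and the members under it were ERRFI1, CDKN1C and TOB1 with DMSO (CDKN1C and CCNG2 without replicate 2 of DMSO at 48 h, where the share of all genes was 4.03%), CDKN2C with Molidustat and BTG1 for the difference.

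**Figure D3:**
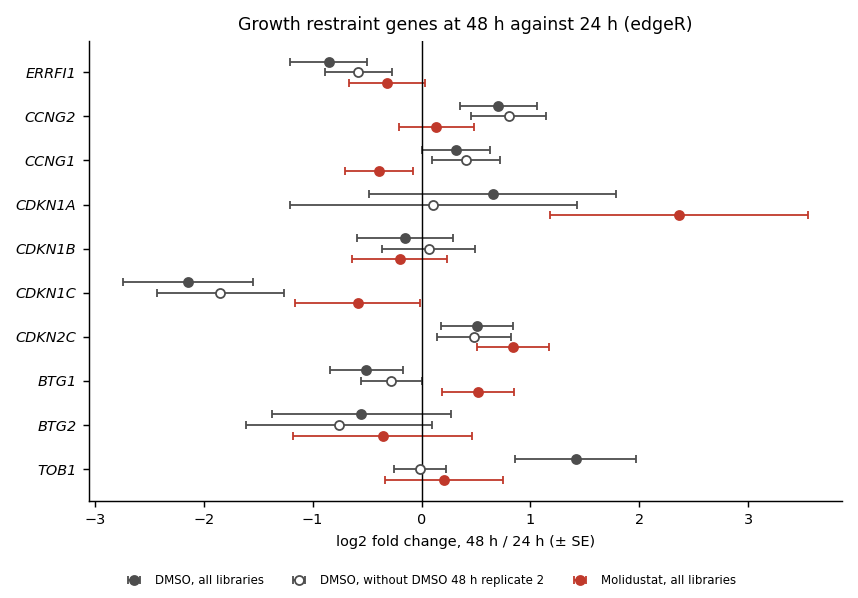
Log2 fold change of 48 h against 24 h (edgeR, bars ± SE) for the 10 genes with DMSO (grey, filled with all libraries and open without replicate 2 of DMSO at 48 h) and with Molidustat (red). CDKN1C with DMSO lies at -2.15 and -1.85, and TOB1 with DMSO moves from 1.42 to -0.02.

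Genes around the members in their pathways were then taken from 16 further lists. Calls and medians in these lists are those of edgeR over both times unless another tool or time is named, and medians are also given without replicate 2 of DMSO at 48 h where it moved them by more than 1.5 times. Among the closest relatives (other CDK inhibitors and BTG/TOB genes and cyclin I) 6 of 7 were tested and 0 were called, with a median of 0.19 over both times. CDKN2D, the p19 gene, had 12.5 ± 6.86 CPM with DMSO and 27.5 ± 15.01 CPM with Molidustat at 24 h (SD, n = 3), a log2 fold change over both times of 1.09 (SE 0.49, edgeR adjusted p = 0.431). BTG3 had 0.40 and CDKN2B 0.39. Of the cyclins and CDKs that the inhibitors act on, 11 of 12 were tested, 0 were called, and the median was -0.06 (-0.01 without that replicate). CCNB1, the mitotic cyclin, had the largest difference there (-0.53, SE 0.24), followed by CCNE2 (0.39) and CCNA2 (-0.35). The RB family and the E2F factors, on which the CDKs act in turn, had 11 of 11 tested, 0 called and a median of -0.25 (-0.16 without it). E2F3, E2F7 and E2F2 led that list at -0.97, -0.76 and -0.54, but E2F7 and E2F2 stood at -0.06 and 0.12 without replicate 2 of DMSO at 48 h. The turnover machinery of p27 and p21 had 9 of 9 tested, 0 called and a median of 0.03 (-0.01 without it), and its leading gene SKP2, which marks p27 for degradation, had -0.73 with all libraries and -0.0036 without that one, and CUL4A and KPNA2 had -0.54 and -0.47.

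On the receptor side, all 4 genes of the EGF receptor family, on which ERRFI1 acts, were tested and 0 were called by edgeR, while DESeq2 called ERBB2 higher at 24 h and over both times (0.83% and 1.67% of all genes). ERBB2, a receptor without a ligand of its own, had 12.9 ± 2.99 and 29.4 ± 4.87 CPM at 24 h and 16.8 ± 1.76 and 30.8 ± 4.38 CPM at 48 h with DMSO and Molidustat (SD, n = 3). Its log2 fold change over both times was 1.03 (SE 0.25, edgeR adjusted p = 0.0667, and DESeq2 adjusted p = 0.00229). EGFR itself had -0.06 (SE 0.31), and -0.13 without replicate 2 of DMSO at 48 h. ERBB4 was at 0 in all DMSO libraries at 24 h and had at most a mean of 5.91 CPM in any group, so no fold is given. Of 6 EGF receptor ligands 2 were tested and 0 called, BTC and HBEGF, both under 4 CPM in every group mean. Among 12 feedback inhibitors of receptor tyrosine kinases 10 were tested and 0 called by edgeR, with a median of -0.27 (-0.09 without replicate 2 of DMSO at 48 h), and SPRY4 and SPRY2 had -0.83 and -0.60. LRIG1, which targets EGF receptors for degradation, had 2.85, 10.6 and 2.27 CPM with DMSO and no count with Molidustat at 48 h. There the floor of 3 counts is at most 1.29 CPM in a library. DESeq2 called LRIG1 lower at 48 h and over both times (DESeq2 adjusted p = 0.00658 and 0.0415), against 1.27% and 0.267% of all genes. The highest of its DMSO values, from 10 counts, is replicate 2 of DMSO at 48 h. Without that library DESeq2 called LRIG1 at neither (DESeq2 adjusted p = 0.0699 and 0.125). Of the 11 immediate early genes that growth factors induce, 8 were tested, 0 were called by edgeR and the median was 0.37, with JUNB at 1.67 (SE 0.48, edgeR adjusted p = 0.156), MYC at -1.09 (SE 0.27, edgeR adjusted p = 0.0823) and EGR1 at -1.77 (SE 0.68). With all libraries DESeq2 called JUNB higher and MYC lower over both times (1.67% and 0.267% of all genes), and JUN higher and MYC and EGR1 lower at 48 h (1.25% and 1.27%), where the call of EGR1 was lost without replicate 2 of DMSO (DESeq2 adjusted p = 0.659). MYC had 52.1 ± 0.463 CPM with DMSO and 15.5 ± 3.14 CPM with Molidustat at 48 h. Without replicate 2 of DMSO at 48 h both JUNB (1.47, edgeR adjusted p = 0.0279) and MYC (-1.08, edgeR adjusted p = 0.0415) passed by edgeR, and EGR1 stood at -1.02 (edgeR adjusted p = 0.547).

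Lists of pathways known to control the members were read against the 0.96% of all genes called higher and 0.0701% called lower over both times. The p53 pathway can drive CDKN1A, BTG2 and CCNG1 where p53 is active, and its activity in these Huh7 cells was not tested. In this list 22 of 25 genes were tested and 1 was called in each direction over both times. The median was 0.22 (0.11 without replicate 2 of DMSO at 48 h). GDF15, a stress cytokine, had 16.5 ± 4.41 CPM with DMSO and 48.1 ± 14.98 CPM with Molidustat at 24 h, and 6.71 ± 4.99 and 31.3 ± 2.29 CPM at 48 h (SD, n = 3). Over both times it rose by 1.79 on the log2 scale (SE 0.34, edgeR adjusted p = 0.0133). AEN, a p53-induced exonuclease, fell by 1.55 (SE 0.33, edgeR adjusted p = 0.0329). Of the FOXO factors and their targets, among which CCNG2 and CDKN1B are usually counted, 9 of 11 were tested and 2 called, with a median of 0.22 (0.49 without that replicate). TXNIP, the inhibitor of thioredoxin, rose by 3.32 (SE 0.22, edgeR adjusted p = 1.38e-06), from 8.84 ± 0.859 to 142 ± 29.99 CPM at 24 h, and CITED2, a competitor of HIF for the coactivator p300, rose by 1.54 (SE 0.31, edgeR adjusted p = 0.0241). All 4 of these genes were also called without replicate 2 of DMSO at 48 h. The paper counts CITED2 among the induced regulators of HIF activity. Whether FOXO factors had a part in these changes was not tested.

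In the lists of the members' effectors edgeR called no gene with Molidustat at 24 h, at 48 h or over both times, while DESeq2 called PAN3, a subunit of the separate PAN2-PAN3 deadenylase, lower at 48 h (-2.07, DESeq2 adjusted p = 0.0333), against 1.27% of all genes. When replicate 2 of DMSO at 48 h was left out, PAN3 was not called there (-0.57, DESeq2 adjusted p = 0.813). The list of deadenylation factors, which holds subunits of the CCR4-NOT complex through which BTG1, BTG2 and TOB1 act together with PAN2, PAN3 and PABPC1, had 14 of 14 genes tested, 0 called and a median of -0.15 (-0.02 without replicate 2 of DMSO at 48 h). CNOT9, the subunit at the head of this list by size, had a log2 fold change of -1.10 with all libraries and 0.02 without replicate 2 of DMSO at 48 h, PAN3 had -1.09 and -0.40, and CNOT8 had 0.62 and 0.51. The subunits of protein phosphatase 2A, with which cyclin G2 associates, had 9 of 9 tested, 0 called and a median of -0.30 (-0.11 without it). Their leading genes were PPP2R5E at -0.86, PPP2R5C at -0.71 and PPP2R5B at 0.53, and PPP2R5E stood at -0.15, PPP2R5C at -0.10 and PPP2R5B at 0.34 without that library. The proliferation genes had 17 of 17 tested and 0 called, with 15 of 17 negative and a median of -0.29 over both times. CCNF, which encodes cyclin F, had -0.97 (SE 0.27, edgeR adjusted p = 0.137), PLK1, a mitotic kinase, had -0.90 (SE 0.24, edgeR adjusted p = 0.122), and BIRC5, the gene of survivin, had -0.72 (SE 0.27). Without replicate 2 of DMSO at 48 h 13 of 17 were negative, the median was -0.23, CCNF and BIRC5 had -0.69 and -0.40, and PLK1 had -0.93 with an edgeR adjusted p of 0.0279, short of the fold threshold. The summed proliferation genes had 2777 to 3047 CPM with DMSO and 2518 to 2822 CPM with Molidustat at 24 h. At 48 h they had 3003, 5189 and 2809 CPM with DMSO and 2334, 2190 and 2111 CPM with Molidustat, with the high value in replicate 2, where RRM2, a subunit of ribonucleotide reductase, alone had 2059 CPM.

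The hypoxia reference genes had 7 of 8 tested and 4 called higher over both times, against 0.96% of all genes, with a median of 2.36. Among the called genes was DDIT4, an inhibitor of mTORC1, at 3.17 (SE 0.38, edgeR adjusted p = 0.000286). BNIP3, PDK1 and NDRG1 had 2.74, 2.62 and 2.36.

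**Figure D4:**
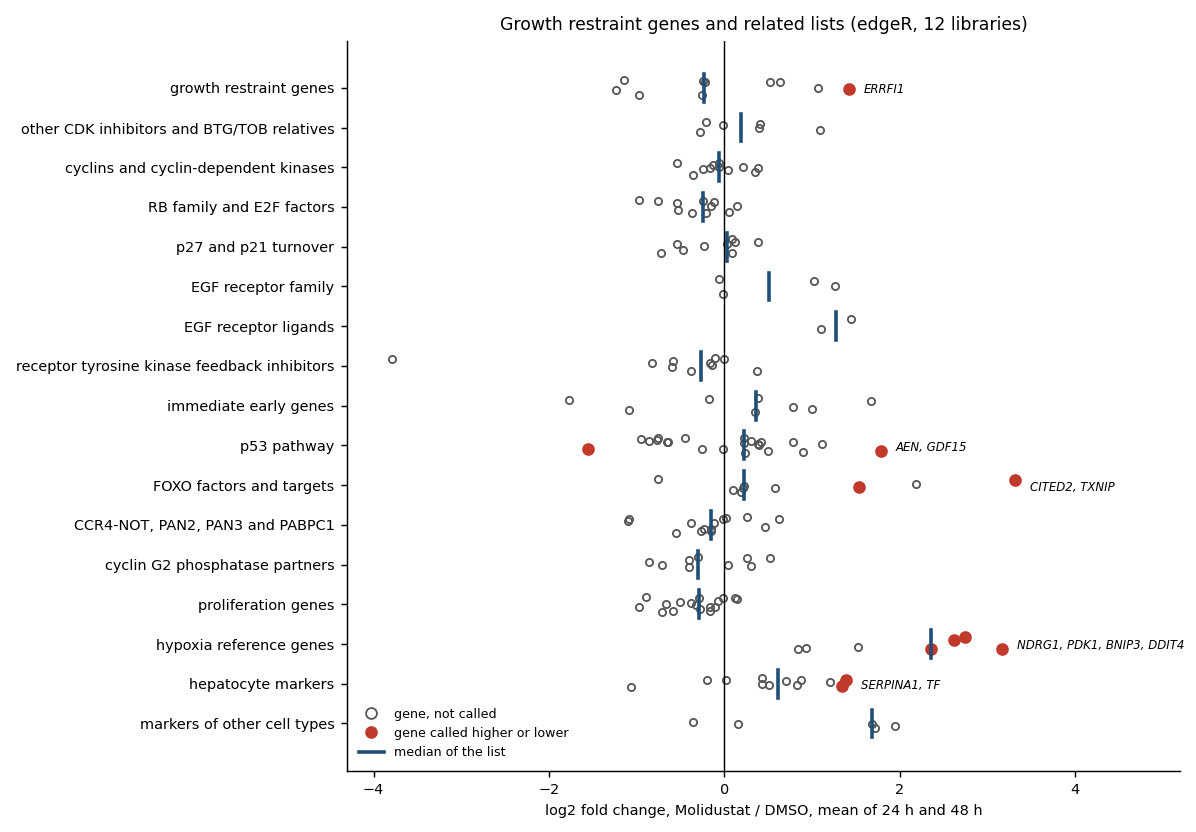
Log2 fold change of Molidustat against DMSO as the mean of 24 h and 48 h (edgeR, 12 libraries) for each tested gene of the growth restraint set and of 16 related lists, with called genes filled and named and the list median as a bar. Of the growth restraint genes only ERRFI1 is called, and the medians run from -0.30 for the phosphatase partners of cyclin G2 to 2.36 for the hypoxia reference genes. Without replicate 2 of DMSO at 48 h, which is not drawn here, the median of the phosphatase partners was -0.11.

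Genes with the most similar profile were found for 4 members by Pearson's r of log2 CPM over the 12 libraries and over the 11 without replicate 2 of DMSO at 48 h, ranked by the lower of both. The libraries share depth and treatment, so these values are descriptive. For CCNG2 they were AQP10 (r = 0.94 over 12 and 0.94 over 11 libraries), PABIR3, ARAP1, ALDOC, a glycolytic aldolase (0.90 and 0.91), and ANGPTL4, an inhibitor of lipoprotein lipase (0.89 and 0.89). For ERRFI1 they were SMIM10L1 (0.94 and 0.92), FUNDC2, ING4, CD24 and GDF15 (0.92 and 0.88). For BTG1 they were NREP (0.89 and 0.87), CST3, OS9, INHBE and BTG1-DT (0.92 and 0.86), the divergent transcript that overlaps BTG1, with which reads could be shared. For TOB1 they included a gene known only by the identifier ENSG00000272980 (0.87 and 0.87), CCR6, SERBP1 and GATC. Between the members themselves, the highest r over 11 libraries was that of CCNG2 and ERRFI1, 0.57 (0.51 over 12). The lowest over 11 were ERRFI1 and TOB1 and CCNG2 and TOB1, both -0.68 (-0.79 and -0.35 over 12). Over 12 libraries the highest was that of ERRFI1 and BTG1, 0.69 (0.47 over 11).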

How the data were processed

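Huh7 transcriptomes were measured in 12 libraries made with the QIAseq UPX 3′ Transcriptome kit. The authors sequenced them on a NextSeq 500, mapped reads to GRCh38 (STAR 2.7.9a) and summed them by gene (HTSeq 0.11.2), per the submitters' processing notes and the paper. Deposited were raw counts of reads for each gene, without normalization. The annotation release, the strand setting and the use of molecular identifiers are not given in the sources used here, so floors cover counting error only and reads of overlapping genes cannot be told apart. The 5 summary lines that name no gene were left out of library sizes and tests (reads on no feature were 50.4% in DMSO 48 h replicate 2 and 17.1 to 25.6% elsewhere). Depth is given with the results.

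Counts were analyzed in R 4.3.3 with edgeR 4.0.16 (filterByExpr with minimum count 10 and minimum total 15, TMM, quasi-likelihood test, Benjamini-Hochberg adjustment over 14274 genes) in 1 fit of all 12 libraries. Contrasts were Molidustat against DMSO at 24 h, at 48 h and as the mean of both, the difference between times, and 48 h against 24 h in each treatment. The quasi-likelihood test reports no SE. Each SE of an edgeR value, also in the figures, is the absolute log2 fold change divided by the square root of the test's F statistic. Called genes have an adjusted p below 0.05 together with an absolute log2 fold change above 1, the thresholds of the study (for the difference between times, the adjusted p alone). With 3 libraries against 3, exact permutation of 1 gene has a smallest two-sided p of 0.1. Alternatives were DESeq2 1.42.0, voom with sample quality weights (limma 3.58.1), other scalings and filters, each time alone, the replicate number as a block, thinning and each library left out in turn. The test was also run on counts simulated with the spread that edgeR had fitted. No simulated library stood apart from the others, so that run cannot show how the calls hold up with such a library. The members, lists and tests were chosen with earlier results of these data known. From each list the text names the called genes or, where there were none, the 3 with the largest log2 fold change over both times. The exceptions, chosen after their values were seen, are RRM2, AFP, PTPRC, the other-cell markers at 0, and the genes named for a call by DESeq2. Another gene list and a gene with a profile like that of TOB1 are not reported here. Gene names and coordinates are from GENCODE release 44, upstream sequences from RefSeq (GRCh38.p14). Plots were made with matplotlib 3.10.9 (Python 3.11.15).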

Additional observations from a re-analysis of the deposited data

How the results depend on the processing

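Of the 10 members, ERRFI1 kept a positive log2 fold change over both times under all 22 alternatives (1.30 to 1.52) and was called in 21 of them. Counts of called members changed with the test and the filter, and so did the share of all genes called (in percent, higher unless stated). At 24 h edgeR called 0 (0.231% of all genes), DESeq2 1 (CCNG2, 0.83%) and DESeq2 without DMSO 48 h replicate 2 called 2 (CCNG2 and ERRFI1, 1.3%). At 48 h, where edgeR called 0 (0.21%), DESeq2 called 2 (ERRFI1 and BTG1, 1.25%), as did voom with quality weights (1.71%). Without a filter on low counts 2 were called (ERRFI1, and TOB1 lower), when the genes called lower went from 3 to 610 (2.15%), and DESeq2 without DMSO 48 h replicate 2 called 1 (ERRFI1, 1.04%). Over both times edgeR called 1, while DESeq2, voom, at least 10 counts in every library and DESeq2 without DMSO 48 h replicate 2 called 2 each (CCNG2 and ERRFI1; 1.67%, 1.95%, 1.05% and 2.11%), and the fit without a filter called 3 (0.883%, with TOB1 among 0.672% lower). For 48 h against 24 h in DMSO the fit without a filter called 1 (CDKN1C, among 0.0457% lower) in place of 0. Leaving out 1 library at a time gave 0 to 2 called members at 48 h (ERRFI1 and TOB1 without DMSO 48 h replicate 1 or 3, when 272 and 152 of all genes were called lower, against 3 with all libraries) and 0 to 2 over both times (0 without DMSO 24 h replicate 1, 0.543%, and CCNG2 and ERRFI1 without DMSO 48 h replicate 2, 1.25%). In these fits TOB1 at 48 h ran from -2.21 to -0.40.

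A few values near 0 changed sign. CDKN1A at 48 h was 0.24 by voom and 0.31 by DESeq2 without DMSO 48 h replicate 2, and CDKN2C at 48 h was 0.016 by voom, 0.089 with total counts and 0.0012 by DESeq2 without that library. With 1 library left out, the values ran from -0.035 to 0.35 for BTG1 and from -0.076 to 0.26 for CCNG1 at 24 h, from -0.63 to 0.27 for CDKN1A and from -0.24 to 0.021 for CDKN2C at 48 h, and from -0.49 to 0.17 for CDKN1C over both times. Without a change of sign they ran from -0.92 to -0.42 for CCNG1 at 48 h, and at 24 h from -3.32 to -1.43 for CDKN1A, from -1.47 to -0.67 for CDKN1C and from -0.64 to -0.19 for CDKN2C. The cause was not tested.

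The groups share replicate numbers. Deviations from the group means had r of -0.09 to 0.14 over 18 same-numbered pairs (median 0.015, 3 of them above 0.1). Over 36 pairs with different numbers r was -0.16 to 0.14 (median 0.0011, 1 above 0.1). Deviations from means of 3 libraries cannot decide whether the numbers pair the libraries, so this remains unknown. With the replicate block edgeR called 0 members at 24 h, 0 at 48 h and 1 over both times (ERRFI1, 1.43, edgeR adjusted p = 0.0143), 0 for the difference between times and 0 for 48 h against 24 h in either treatment. Over all genes the block moved the calls over both times from 137 to 112 higher and from 10 to 7 lower. Depth limits CDKN1A, with at most 22 counts in a library, and BTG2.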

Other observations

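By edgeR over both times, TF and SERPINA1 were the 2 of 12 hepatocyte markers called higher with Molidustat, against 0.96% of all genes. TF, which encodes transferrin, had 1209 ± 84.9 CPM with DMSO and 2894 ± 320 CPM with Molidustat at 24 h and 1709 ± 931 and 4895 ± 669 CPM at 48 h (SD, n = 3), and rose by 1.39 on the log2 scale over both times (SE 0.30, edgeR adjusted p = 0.0337). SERPINA1, the gene of α1-antitrypsin, rose by 1.34 (SE 0.26, edgeR adjusted p = 0.0174), from 728 ± 34.9 to 1611 ± 451 CPM at 24 h and from 841 ± 343 to 2436 ± 237 CPM at 48 h. Without DMSO 48 h replicate 2 the values were 1.19 (edgeR adjusted p = 0.00011) and 1.20 (edgeR adjusted p = 0.000498).

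DMSO 48 h replicate 2, the library in which TOB1 reached 2156 CPM, also set the level of other genes in the lists. The mean of its group was 3220 ± 4399 CPM for CNOT9 (SD, n = 3), against 535 to 734 CPM in the other groups, and 683 ± 751 CPM for SKP2, against 228 to 317 CPM. RRM2 had 2059 CPM in that library and 196 to 517 CPM in the others. These genes were singled out after their values were seen.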
